A study of Oryza sativa with 18 samples.

Results

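The genes described here are those annotated as protein kinases, receptor-like kinases or leucine-rich repeat proteins that differed between csa and wild type rice embryos early in germination. They were chosen by search terms on the annotation text of the deposited tables (protein kinase, receptor-like, receptor kinase, serine/threonine kinase, Pto kinase, leucine-rich repeat and calcium-dependent), leaving out NB-ARC, disease resistance and cyclin entries and every locus whose identifier begins LOC_Os01g0, the start of chromosome 1. This gave 108 genes of the 3149 genes that the tables list at any time. The word kinase stands in the annotation of 86 of them. The others are leucine-rich repeat proteins with no kinase named, proteins with a C2 calcium-dependent membrane targeting domain, and an ethylene receptor. An ARF GTPase-activating protein, GIT2, entered only because its description mentions a receptor kinase.

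The study sequenced total RNA from embryos of germinating seeds of the rice (Oryza sativa) wild type line 9522 and of the csa mutant, imbibed for 3 h, 6 h or 12 h. The CSA protein is a MYB-type transcription factor, best studied for moving sugar into the anther. All 6 groups were surface-sterilized seeds germinated at the same temperature and light cycle in the same salt medium. Each group had 3 samples, and the labels name the embryo as tissue and 5 seeds per RNA extraction. The labels do not name separate plants or seed lots, nor the allele or number of csa lines, so every p-value rests on variation among these samples that could be purely technical. In bulk RNA, fewer cells of a type and less RNA per cell cannot be told apart.

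Protein kinases attach phosphate to other proteins and so switch their activity, location or stability. Receptor-like kinases span the plasma membrane, sensing peptides, hormones or wall fragments with an outer domain, often of leucine-rich repeats, and signalling through an inner kinase domain. Receptor-like cytoplasmic kinases act beneath them, MAP kinase cascades relay the signal, and calcium-dependent and CBL-interacting kinases read calcium. In seeds members of the SnRK2 family, called SAPK in rice, carry abscisic acid or osmotic stress signals. Some of them are held inactive by type 2C phosphatases.

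The tables hold raw counts of called genes only, called where the log2 fold change was 1 or more in size and the false discovery rate no more than 0.05 in the authors' test. A gene's presence here is therefore itself the outcome of the comparison, and the values below describe the listed genes. Total counts per library are unknown. The scaling factors that the deposited fold changes imply ran from 0.920 to 1.10. The CSA gene itself (LOC_Os01g16810) was listed at 6 h, with raw counts of 92, 81 and 201 in the mutant libraries against 310, 305 and 380 in wild type. Of the libraries, csa replicate 2 at 3 h and at 12 h and csa replicate 3 at 6 h stood farthest from the others of their group. The title of wild type replicate 3 at 12 h puts it with wild type, while its genotype label names the mutant.

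At 6 h most kinase and receptor-like genes on the list were lower in csa, whereas at 3 h most were higher. At 3 h, 24 members were listed, 16 higher and 8 lower in csa, where 4.91% of all genes tested were called, 3.49% higher and 1.42% lower. At 6 h, 88 were listed, 33 higher and 55 lower, where 10.3% of all genes tested were called, 6.03% higher and 4.30% lower. At 12 h, 3 were listed, 1 higher and 2 lower, where about 0.400% of all genes tested were called, 0.212% higher and 0.188% lower. How many kinase genes were tested is not known, so no rate of calling can be given for them.

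The direction of the members can be set beside that of every listed gene. Higher calls made up 66.7% of the members at 3 h and 71.0% of all entries (29.0% were lower), or 72.1% of those outside the start of chromosome 1, so the members were close to the background there. At 6 h they made up 37.5% of the members and 58.4% of all entries (41.6% were lower), or 59.2% of those outside the start of chromosome 1. At 12 h they made up 33.3% of the 3 members and 52.9% of all entries (47.1% were lower), or 56.2% of those outside the start of chromosome 1. The median log2 ratio of the 6 h members was -1.16, against 1.11 for all 6 h entries. Every listed gene passed an absolute log2 fold change of 1, so these medians only restate the split by direction. Among the lower genes the size was alike, with a median of -1.36 for the members and -1.38 for all lower entries. Read numbers were alike too, with a median of 117 raw counts per library for the members at 6 h and 118 for all entries.

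The counts depended on single libraries more than the direction did. In an edgeR quasi-likelihood refit of the listed genes, the 6 h members split into 33 higher and 53 lower, and 95.3% of all 6 h entries were kept. Without csa replicate 3 they split into 25 and 34, and without wild type replicate 2 into 27 and 35. At 3 h the refit kept all 24 members and 95.6% of all entries, and 23 of 24 members had genotypes that did not overlap, against 96.1% of all entries. Without csa replicate 2 the 3 h members split into 9 higher and 5 lower, without wild type replicate 1 or 3 into 10 and 4, and without wild type replicate 2 into 9 and 8. Factors set by TMM on the listed genes alone moved the median log2 ratio of all entries by -1.23 at 3 h and -0.58 at 6 h. They left 0 higher and 8 lower members called at 3 h, where 6 members changed sign, and 10 higher and 55 lower at 6 h, where 0 changed sign.

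**Figure D1:**
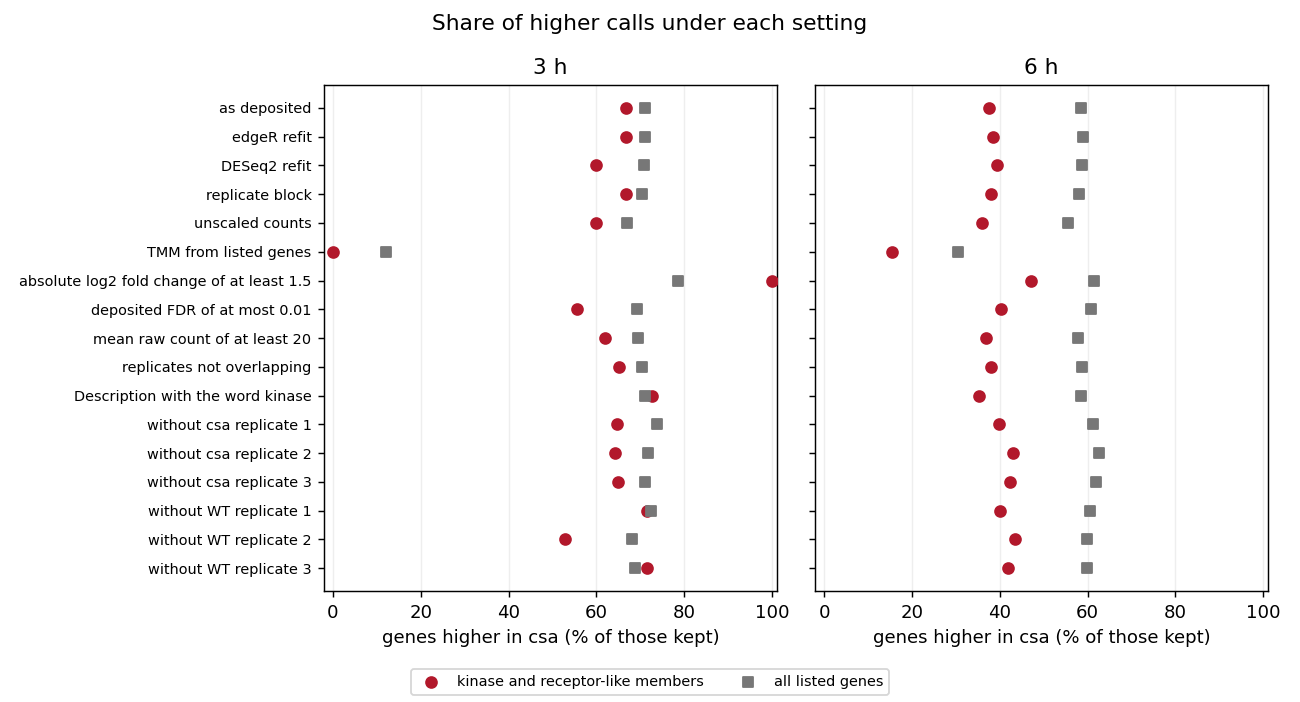
Percent of genes higher in csa at 3 h and 6 h, among the kinase and receptor-like members (red circles) and among all listed genes (grey squares), under each setting of the analysis, given on the vertical axis. At 6 h the members lie to the left of all listed genes under every setting shown, from 37.5% against 58.4% as deposited to 15.4% against 30.5% with TMM factors from the listed genes, while at 3 h the members lie to the right under an absolute log2 fold change of at least 1.5, without wild type replicate 3, and for members with the word kinase.

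**Figure D2:**
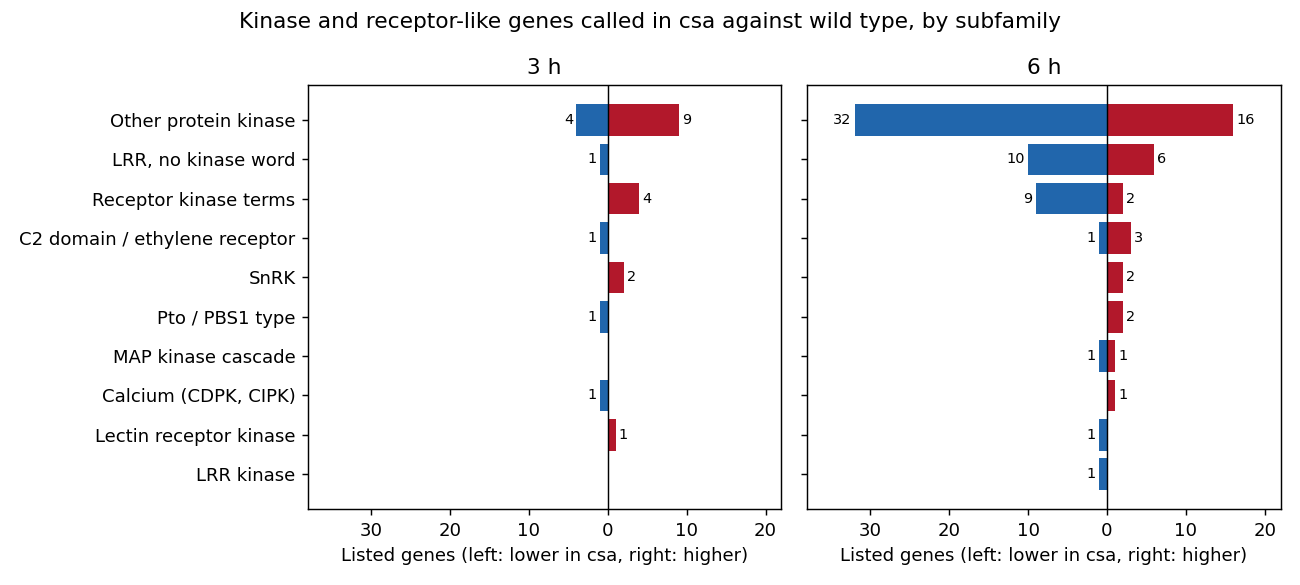
Number of listed genes in each annotation subfamily at 3 h and 6 h, with bars to the right for genes higher and to the left for genes lower in csa. The receptor kinase terms hold 4 higher genes at 3 h but 2 higher and 9 lower at 6 h, and GIT2 is counted among them at both times.

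The few receptor kinase genes listed at 3 h were higher, and most of those listed at 6 h were lower. Counted with the lectin and leucine-rich repeat receptor kinases but without GIT2, a choice made after the values were seen, 4 of 4 were higher at 3 h, where 71.0% of all entries were higher. At 6 h, 2 were higher and 10 lower, a share of 16.7% higher against 58.4% of all entries. Apart from the lectin receptor kinase described below, the genes listed at the 2 times were different ones.

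At 3 h a gene similar to BAK1 (LOC_Os01g70970), which in Arabidopsis is the co-receptor of the brassinosteroid receptor, had raw counts of 39, 38 and 26 in the mutant libraries against 11, 13 and 11 in wild type. All mutant values lay above all wild type values, and the log2 ratio was 1.63 ± 0.20 (SE, n = 3 per group). A gene similar to Receptor-like protein kinase 5 (LOC_Os05g42210) had a log2 ratio of 1.70 ± 0.42, and 1.24 without csa replicate 2. A gene similar to a somatic embryogenesis receptor kinase (LOC_Os08g07774), the family to which BAK1 belongs, stood at 1.24 ± 0.31. It was kept in 2 of the 6 refits that each left out 1 library. These genes had few reads, at most 51 in any library.

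At 6 h the receptor kinase gene with the smallest deposited false discovery rate was one similar to Receptor-like protein kinase 2 (LOC_Os03g56270). It had raw counts of 306, 350 and 296 in the mutant libraries against 710, 756 and 892 in wild type. The genotypes were well apart and each was tight, and the log2 ratio was -1.25 ± 0.12. A gene similar to a receptor protein kinase (LOC_Os02g48080) had raw counts of 27, 35 and 50 in the mutant libraries against 103, 119 and 221 in wild type, with a log2 ratio of -1.92 ± 0.37. A leucine-rich repeat transmembrane kinase gene (LOC_Os07g42626) stood at -1.63 ± 0.25 from 22 or fewer raw counts over the csa libraries, and was kept in 4 of the 6 refits that left out 1 library. Other lower receptor kinase genes, named after their values were seen, were a leucine-rich receptor-like kinase gene (LOC_Os08g28870) at -1.75 ± 0.35 and one similar to Receptor-like protein kinase 4 (LOC_Os07g35390) at -2.03 ± 0.54. The lowest ratio, -2.88 ± 0.97, was that of a gene similar to RK20-1 (LOC_Os07g35810), with 0, 1 and 3 in the mutant libraries against 7, 8 and 15 in wild type.

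The 2 receptor kinase genes higher at 6 h were annotated as a receptor kinase-like protein and a nodulation receptor kinase. The first (LOC_Os08g28710) had raw counts of 1048, 748 and 1570 in the mutant libraries against 395, 355 and 394 in wild type. Its csa libraries varied widely but stayed above wild type, and the log2 ratio was 1.59 ± 0.27. The second (LOC_Os06g17285), similar to a kinase that legumes need for root symbiosis, had a log2 ratio of 1.08 ± 0.23. Without csa replicate 3, and without wild type replicate 2, the refit did not keep it.

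Leucine-rich repeat genes with no kinase named, which hold a protein-binding repeat, numbered 16 at 6 h, 6 higher and 10 lower. This was 37.5% higher, against 58.4% of all 6 h entries. One with an N-terminal repeat domain (LOC_Os11g35410) had raw counts of 150, 99 and 164 in the mutant libraries against 353, 436 and 606 in wild type, a log2 ratio of -1.70 ± 0.25. Another (LOC_Os02g43250) had 33, 39 and 31 in the mutant libraries against 110, 129 and 141 in wild type, a log2 ratio of -1.83 ± 0.16. In both genes every csa library lay below every wild type library.

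On the higher side stood LOC_Os11g10760 at 1.47 ± 0.26 and LOC_Os02g38392 at 1.29 ± 0.25. LOC_Os11g10770, whose identifier follows the first, stood at 1.37 ± 0.28. RefSeq lists 2 members of this group as IRL5 (LOC_Os10g42190) and IRL6 (LOC_Os02g58030), and they differed in direction. The scaled counts of IRL5 averaged 1174 ± 151 in the mutant and 572 ± 97.8 in the wild type (SD, n = 3), a log2 ratio of 1.04 ± 0.18, while IRL6 stood at -1.10 ± 0.21. Of the 6 refits that left out 1 library, 4 kept the call of IRL5 and 3 that of IRL6. The refit without scaling did not keep IRL5. Among the lower genes, LOC_Os03g20450 had 72, 100 and 60 in the mutant libraries against 192, 284 and 201 in wild type.

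Genes annotated as SnRK or SAPK were all higher in csa, 2 of 2 at 3 h and 2 of 2 at 6 h. Of all entries, 71.0% were higher at 3 h and 58.4% at 6 h, so these few genes do not stand apart. CIPK kinases, which form the SnRK3 branch of the SnRK family, are described with the calcium-linked genes, and the 1 listed was lower. SAPK3 (LOC_Os10g41490), a SnRK2 gene listed at 3 h, is annotated as an osmotic stress/abscisic acid-activated protein kinase, though activation was not measured. It had raw counts of 274, 569 and 476 in the mutant libraries against 228, 197 and 157 in wild type. The csa libraries varied widely but lay above wild type, and the log2 ratio was 1.26 ± 0.34. A gene for a regulatory gamma subunit of the energy-sensing SnRK1 complex (LOC_Os01g69240) stood at 1.56 ± 0.29 from 7 to 28 raw counts per library. In the authors' deposited table its false discovery rate was 0.0419, and the DESeq2 refit did not keep it.

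At 6 h the listed SnRK2 genes were SAPK5 and SAPK9. SAPK5 (LOC_Os04g59450) had raw counts of 323, 272 and 518 in the mutant libraries against 136, 159 and 126 in wild type, a log2 ratio of 1.42 ± 0.29. SAPK9 (LOC_Os12g39630) had 205, 181 and 298 in the mutant libraries against 34 to 111 in wild type, a log2 ratio of 1.52 ± 0.45. Both were kept in every refit that left out 1 library. SAPK3 was listed at 3 h only and SAPK5 and SAPK9 at 6 h only. Their difference between times was not tested, since their counts at the other time are not in the tables used here.

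Calcium-linked kinases gave 1 gene at each of 3 h and 6 h. CIPK29 (LOC_Os07g48090), a kinase of the type that works with calcineurin B-like calcium sensors, had the smallest deposited false discovery rate of the 3 h members, 1.06e-10 in the authors' deposited table. Its raw counts were 668, 538 and 684 in the mutant libraries against 2069, 1472 and 1520 in wild type, and the highest mutant library lay far below the lowest wild type library. The log2 ratio was -1.35 ± 0.20.

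At 6 h the calcium-dependent protein kinase gene CPK25 (LOC_Os11g04170) had raw counts of 9, 26 and 22 in the mutant libraries against 3, 0 and 1 in wild type. Its log2 ratio of 3.88 ± 1.06 rests on 4 wild type reads, and it was 5.41 without wild type replicate 1 and 3.29 without wild type replicate 2. The C2 domain, which binds membrane lipids in the presence of calcium, is not a kinase domain. The genes carrying it were 3 higher and 1 lower at 6 h, where 58.4% of all entries were higher. LOC_Os01g70790 had raw counts of 4602, 5334 and 5581 in the mutant libraries against 2076, 1704 and 1819 in wild type. This was the smallest deposited false discovery rate of the 6 h members, 6.08e-16 in the authors' deposited table, with a log2 ratio of 1.51 ± 0.12.

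A second C2 gene (LOC_Os08g44850) had raw counts of 1591, 1767 and 1663 in the mutant libraries against 691, 316 and 432 in wild type, a log2 ratio of 1.85 ± 0.35. Another (LOC_Os02g58230) stood at 1.15 ± 0.24. The lower one (LOC_Os02g31867) had 58, 32 and 28 in the mutant libraries against 93, 117 and 56 in wild type, so the genotypes overlapped, and the edgeR refit did not keep it. It was the only 6 h member with overlapping genotypes: 87 of 88 did not overlap, against 97.3% of all 6 h entries.

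MAP kinase cascade genes were listed at 6 h only and pointed both ways. A gene similar to the MAP kinase kinase kinase NPK1 (LOC_Os02g53040), which stands at the top of a cascade, had raw counts of 73, 115 and 122 in the mutant libraries against 30, 35 and 28 in wild type. Its log2 ratio was 1.77 ± 0.25. The gene annotated as MAP kinase 13 (LOC_Os02g04230), from the bottom tier of a cascade, had 357, 302 and 276 in the mutant libraries against 606, 593 and 792 in wild type, a log2 ratio of -1.03 ± 0.16. The latter was not kept without csa replicate 3 or without wild type replicate 3.

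Receptor-like cytoplasmic kinase genes similar to PBS1, an Arabidopsis kinase that bacterial effectors cleave, were lower at 3 h and higher at 6 h, in different genes. LOC_Os05g33080 had raw counts of 34, 50 and 62 in the mutant libraries against 167, 91 and 91 in wild type at 3 h, a log2 ratio of -1.19 ± 0.41. LOC_Os07g49470 had 597, 477 and 564 in the mutant libraries against 323, 167 and 200 in wild type at 6 h, a log2 ratio of 1.29 ± 0.33. LOC_Os02g58610 had 9, 7 and 11 in the mutant libraries against 0, 0 and 1 in wild type at 6 h. From 27 against 1 reads, the ratio of summed reads, scaled by the summed factors, was 27.9. Its exact 95% interval of 4.60 to 1142 covers counting error only. The ratio of mean scaled counts was 30.1.

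**Figure D3:**
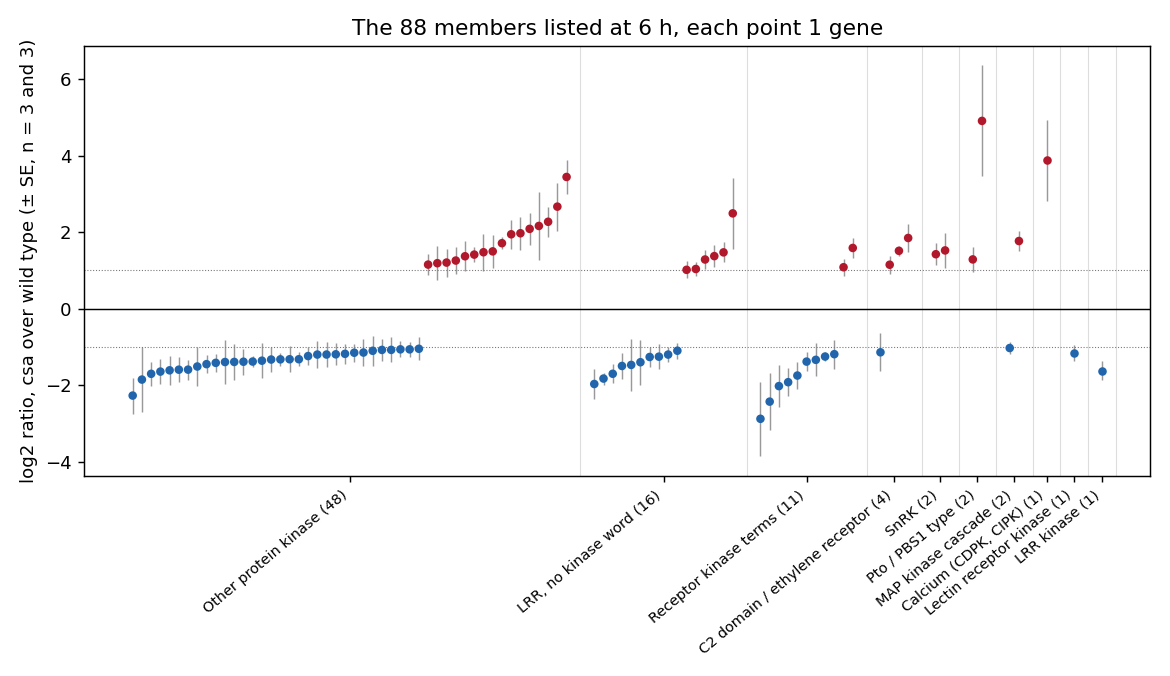
Log2 ratio of mean scaled counts, csa over wild type, for each of the 88 members listed at 6 h, grouped by annotation subfamily on the horizontal axis. Bars are standard errors with 3 libraries per genotype, and dotted lines mark the fold threshold. The lower genes lie between -1.03 and -2.88, and the higher genes reach 4.91, where the widest bars belong to genes with few reads in wild type.

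Most members carry only a general kinase annotation. Of these other protein kinase genes, 13 were listed at 3 h, 9 higher and 4 lower, and 48 at 6 h, 16 higher and 32 lower. At 3 h they were therefore 69.2% higher, against 71.0% of all entries, and at 6 h 33.3% higher, against 58.4% of all entries.

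At 3 h LOC_Os05g25390, similar to a kinase-related protein, had raw counts of 206, 175 and 158 in the mutant libraries against 83, 73 and 73 in wild type, a log2 ratio of 1.31 ± 0.13. LOC_Os02g02140 had 28, 29 and 17 in the mutant libraries against 8, 6 and 3 in wild type, a log2 ratio of 2.19 ± 0.45 and the highest among the 3 h members. LOC_Os12g44320 had 82, 67 and 60 in the mutant libraries against 32, 36 and 31 in wild type, a log2 ratio of 1.15 ± 0.14. In each of these the genotypes did not overlap. The call of LOC_Os12g44320 was nevertheless kept in only 2 of the 6 refits that left out 1 library, those without csa replicate 2 or 3. LOC_Os11g10710 had 86, 35 and 160 in the mutant libraries against 33, 24 and 34 in wild type. Its log2 ratio of 1.69 ± 0.57 was 1.06 without csa replicate 3, and the refit without that library did not keep it.

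Lower at 3 h was LOC_Os03g03410, annotated as a serine/threonine-specific kinase, with raw counts of 1376, 760 and 1279 in the mutant libraries against 2348, 2373 and 2776 in wild type. The log2 ratio was -1.07 ± 0.24. LOC_Os05g40770 had 138, 164 and 205 in the mutant libraries against 423, 283 and 411 in wild type, a log2 ratio of -1.07 ± 0.24. LOC_Os11g44415 had 60, 53 and 42 in the mutant libraries against 145, 114 and 109 in wild type, a log2 ratio of -1.18 ± 0.21. An absolute log2 fold change of 1.5 was reached by 0 of the 8 lower members at 3 h, against 28.6% of all lower entries, and by 7 of the 16 higher members, against 42.6% of all higher entries. The ethylene receptor gene, listed as ETR2 in RefSeq (LOC_Os04g08740), had 1888, 758 and 1089 in the mutant libraries against 2670, 2445 and 2931 in wild type. Its log2 ratio of -1.04 ± 0.38 lay nearest the fold threshold of the 3 h members, and it was not kept without csa replicate 2, csa replicate 3 or wild type replicate 3.

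The higher kinase genes with the smallest deposited false discovery rates at 6 h differed in how closely their csa libraries lay together. LOC_Os10g06510 had raw counts of 115, 118 and 123 in the mutant libraries against 44, 32 and 36 in wild type, a log2 ratio of 1.71 ± 0.15. LOC_Os05g44930 had 250, 246 and 274 in the mutant libraries against 92, 30 and 66 in wild type, a log2 ratio of 2.09 ± 0.42. LOC_Os06g07070 had 520, 490 and 718 in the mutant libraries against 258, 203 and 202 in wild type, a log2 ratio of 1.41 ± 0.20. In all of these the lowest csa library exceeded the highest wild type library. LOC_Os06g47880 had 32 reads in csa and 3 in wild type, a ratio of summed reads, scaled by the summed factors, of 11.0. Its exact 95% interval of 3.45 to 56.2 covers counting error only. The ratio of mean scaled counts was 10.9.

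On the lower side at 6 h, LOC_Os10g41290 is similar to KIPK, a kinase that in Arabidopsis binds a kinesin-like calmodulin-binding protein. It had raw counts of 162, 173 and 171 in the mutant libraries against 357, 455 and 561 in wild type, a log2 ratio of -1.38 ± 0.15. A second KIPK-like gene (LOC_Os12g05394) stood at -1.19 ± 0.29, and a gene similar to the kinase G11A (LOC_Os06g18830) at -1.24 ± 0.24. The KIPK-like genes, named after their values were seen, thus shared a direction. LOC_Os11g25860 had 108, 122 and 192 in the mutant libraries against 343, 433 and 537 in wild type, a log2 ratio of -1.60 ± 0.26. LOC_Os05g47770 had 236, 251 and 142 in the mutant libraries against 555, 819 and 762 in wild type, a log2 ratio of -1.71 ± 0.32. Csa replicate 3 was the lowest of its group in 38 of the 55 lower members and the highest in 16 of the 33 higher members, so it lay farthest from wild type in many genes of either direction.

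**Figure D4:**
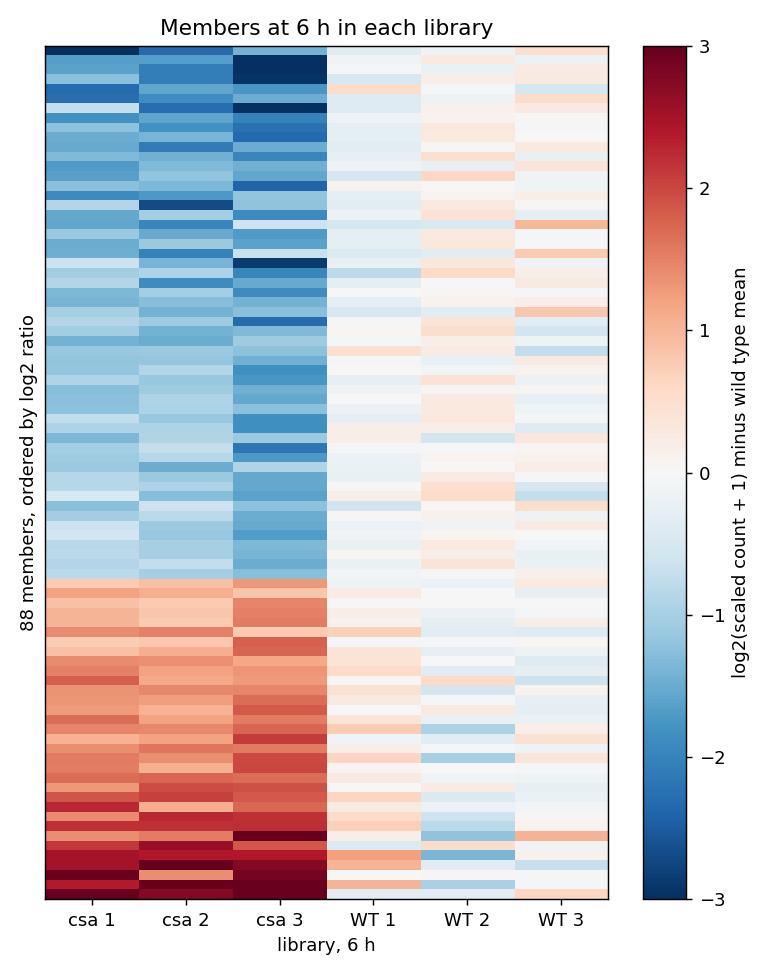
Each row is 1 of the 88 members listed at 6 h, ordered by log2 ratio, and each column a library; colour gives log2(scaled count + 1) minus the mean of the wild type libraries, saturating at 3 in either direction. Blue rows, lower in csa, number 55 and red rows 33, and csa replicate 3 has the deepest colours in many rows.

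Of the 24 members listed at 3 h, 7 were also listed at 6 h, or 29.2%, close to the 31.0% of all 3 h entries. None was listed at all 3 times. Of these 7 genes, 3 were above wild type both times and 2 below it both times, while 2 were above it at 3 h and below it at 6 h. The 3 h and 6 h libraries are separate, so these comparisons share no control samples. Among all 326 genes listed once in each of both tables, 86.2% had the same direction.

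The genes that changed direction were a lectin-like receptor kinase gene and GIT2. The lectin-like receptor kinase 7 gene (LOC_Os12g38610), of a family that senses sugars or nucleotides outside the cell, had raw counts of 67, 52 and 71 in the mutant libraries against 25, 42 and 21 in wild type at 3 h. At 6 h it had 59, 45 and 74 in the mutant libraries against 115, 128 and 170 in wild type. The genotypes did not overlap at either time, but csa was above wild type at 3 h and below it at 6 h. The 3 h call was kept in 3 of the 6 refits that left out 1 library, being lost without csa replicate 1, wild type replicate 1 or wild type replicate 3. The log2 ratios were 1.18 ± 0.33 and -1.17 ± 0.20. In an edgeR quasi-likelihood test of the genotype by time interaction over all 326 genes, the difference, 6 h minus 3 h, was -2.34, with an adjusted p of 5.94e-04 (Benjamini-Hochberg).

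GIT2 (LOC_Os02g10480), an ARF GTPase-activating protein of membrane traffic and no kinase, had 38, 26 and 63 in the mutant libraries against 20, 16 and 22 in wild type at 3 h. At 6 h it had 79, 99 and 59 in the mutant libraries against 209, 208 and 228 in wild type. The log2 ratios were 1.20 ± 0.38 and -1.39 ± 0.24, and the difference was -2.58 with an adjusted p of 3.98e-04 in the same edgeR test. Its 3 h call was kept in 1 of the 6 refits that left out 1 library. Genes entered this test through calls at both times, so genes called in opposite directions were already far apart, and the p-values are no independent support for the change of direction. Of the 326 genes, 45 had opposite directions and 57 passed.

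The genes lower at both times were a leucine-rich repeat/extensin gene and a kinase gene. LOC_Os01g41120, whose protein links a leucine-rich repeat to a wall-bound extensin part, had 186, 160 and 199 in the mutant libraries against 497, 369 and 478 in wild type at 3 h. At 6 h it had 333, 278 and 198 in the mutant libraries against 539, 834 and 624 in wild type. Its log2 ratios were -1.23 ± 0.15 and -1.26 ± 0.33, and the fitted difference was -0.03 with an adjusted p of 1.00 by edgeR, between -0.22 and 0.22 when single libraries were left out. LOC_Os04g48760, with a kinase core domain, had 207, 132 and 166 in the mutant libraries against 394, 271 and 428 in wild type at 3 h. At 6 h it had 170, 169 and 98 in the mutant libraries against 382, 370 and 286 in wild type. Its log2 ratios were -1.05 ± 0.26 and -1.20 ± 0.32. Of the 6 refits that left out 1 library, 3 kept its call at 3 h and 4 at 6 h. For LOC_Os01g41120, all 6 kept the call at 3 h and 5 at 6 h.

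The genes higher at both times carry serine/threonine kinase domains. LOC_Os04g39650 had 138, 133 and 57 in the mutant libraries against 67, 61 and 37 in wild type at 3 h, where the genotypes overlapped. It had 63, 92 and 82 in the mutant libraries against 23, 8 and 7 in wild type at 6 h. Its log2 ratios were 1.07 ± 0.43 and 2.67 ± 0.63, the latter 3.45 without wild type replicate 1. Its 3 h call was kept in 2 of the 6 refits that left out 1 library, and its 6 h call in all 6. The DESeq2 refit and the refit without scaling did not keep the 3 h call. The difference of 1.61 had an adjusted p of 0.0722 by edgeR, and 0.00475 to 0.223 over the alternatives.

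LOC_Os01g50400 had 53, 90 and 81 in the mutant libraries against 33, 33 and 46 in wild type at 3 h, and 50, 69 and 45 in the mutant libraries against 8, 16 and 11 in wild type at 6 h. Its log2 ratios were 1.08 ± 0.28 and 2.27 ± 0.39, and the adjusted p of the difference was 0.187 by edgeR. The 3 h call was kept in 1 of the 6 refits that left out 1 library and was lost without scaling. The 6 h call was kept in all 6. LOC_Os04g49460 had 39, 65 and 59 in the mutant libraries against 26, 17 and 26 in wild type at 3 h, and 54, 59 and 227 in the mutant libraries against 23, 8 and 48 in wild type at 6 h. At 6 h its log2 ratio of 2.16 ± 0.90 leaned on csa replicate 3 and was 1.24 without it. At each time the call of LOC_Os04g49460 was kept in 4 of the 6 refits. None of these 3 genes passed the test of a difference between times, except that LOC_Os04g39650 did without wild type replicate 1 at 6 h (adjusted p = 0.00475 by edgeR) and with the replicate number as a block (0.0329).

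**Figure D5:**
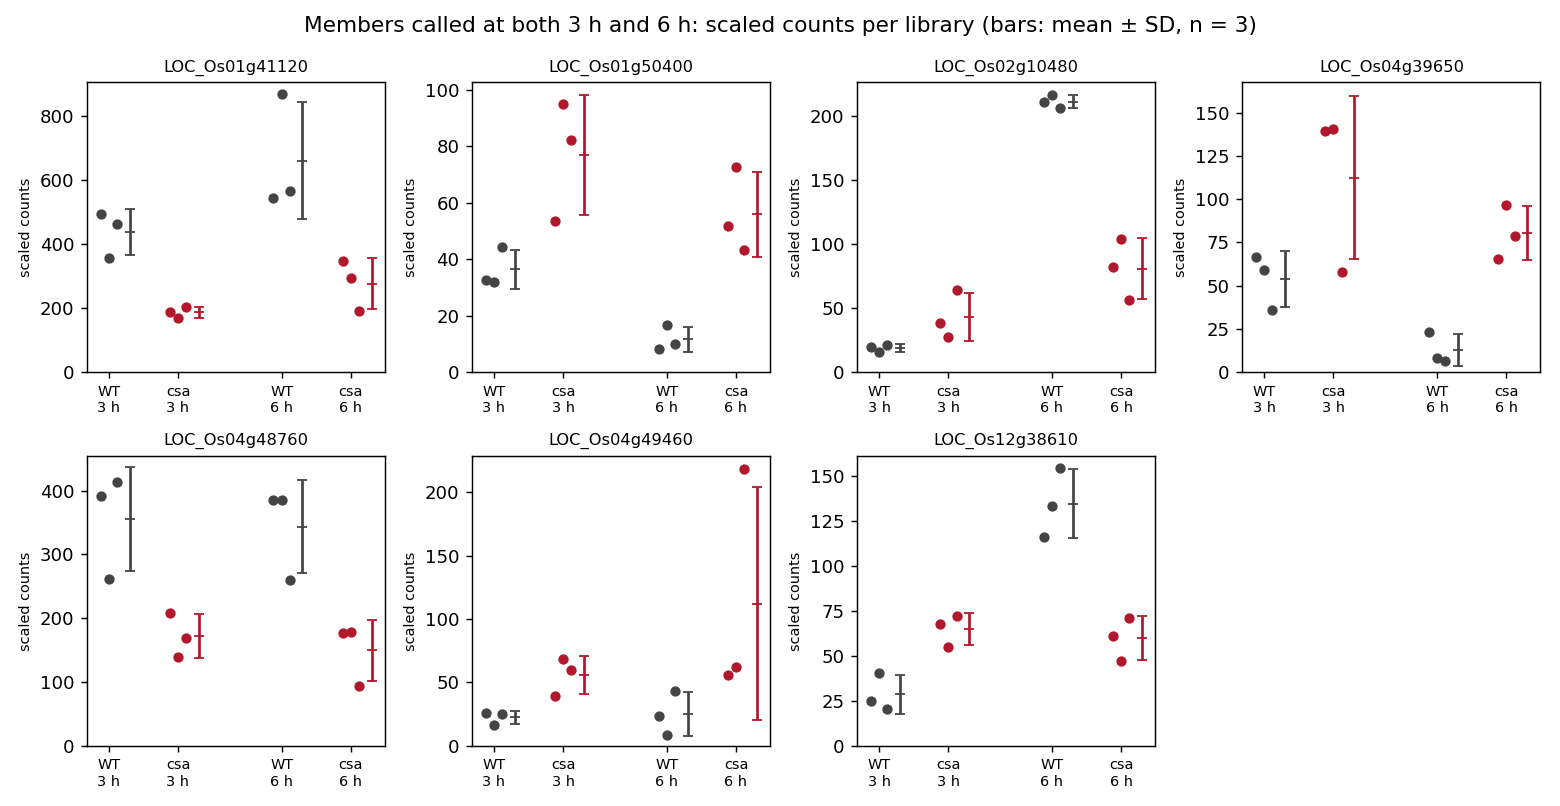
Scaled counts of the 7 genes called at both 3 h and 6 h, with 1 point per library and mean ± SD beside the points (n = 3), wild type in grey and csa in red. The 3 h and 6 h values were scaled separately, so genotypes can be compared within a time; in LOC_Os12g38610 and LOC_Os02g10480 the csa points lie above wild type at 3 h and below it at 6 h.

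At 12 h few genes were called, and 3 members were among them, none listed earlier. A Pto-like kinase gene (LOC_Os03g03280), of the receptor-like cytoplasmic kinases, had raw counts of 135, 92 and 111 in the mutant libraries against 278, 419 and 407 in wild type, a log2 ratio of -1.65 ± 0.29. A leucine-rich repeat gene (LOC_Os03g05140) had 14, 83 and 23 in the mutant libraries against 240, 295 and 113 in wild type. Its log2 ratio of -2.47 ± 0.80 was -3.44 without csa replicate 2. A gene with a kinase core domain (LOC_Os04g56110) had 521, 684 and 634 in the mutant libraries against 275, 260 and 374 in wild type, a log2 ratio of 1.05 ± 0.19. The genotypes did not overlap in any of the 3, as in 100% of all 12 h entries.

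Without wild type replicate 3, the library with a conflicting label, these log2 ratios were -1.57, -2.77 and 1.24. The edgeR refit without that library kept 0 higher and 1 lower member. With all libraries, the edgeR and DESeq2 refits kept the lower genes but not LOC_Os04g56110. The edgeR refit kept only 45.9% of all 12 h entries, so a call lost there says little about a single gene. The Pto-like gene was kept in 2 of the 6 refits that left out 1 library.

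Near the thresholds, the 6 h member with the smallest absolute fold was LOC_Os04g55420, at 1.01 in the authors' deposited table. The one with the largest false discovery rate was LOC_Os11g07060, at 0.0468 in the authors' deposited table.

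Other genes of phosphorylation signalling were counted from lists of search terms. Protein phosphatase genes, whose products remove phosphate, were 6 higher and 3 lower at 6 h. This was 66.7% higher, near the 58.4% of all 6 h entries for so few genes. Type 2C phosphatase genes among them were higher in LOC_Os06g48300 at 1.60 ± 0.21, LOC_Os03g55320 at 1.45 ± 0.23 and LOC_Os03g10950 at 1.72 ± 0.42, and lower in LOC_Os01g07090, from the start of chromosome 1, at -1.10 ± 0.26. At 12 h LOC_Os03g10950, the 1 phosphatase gene listed, stood at 1.11 ± 0.31. The 3 h list held 1 higher and 1 lower: a type 2C gene (LOC_Os09g15670) stood at 1.67 ± 0.36 and a dual specificity phosphatase gene (LOC_Os01g53710) at -1.29 ± 0.35.

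Genes with calmodulin, EF-hand or calcineurin B annotation were 5 higher and 3 lower at 3 h and 11 higher and 5 lower at 6 h. The 6 h genes include LOC_Os01g04330, at 1.22 ± 0.21, and LOC_Os01g09470, at -1.33 ± 0.23, from the start of chromosome 1. The terms also caught proteins that bind calmodulin and are not sensors, 2 at 3 h and 5 at 6 h. Without these the counts were 4 higher and 2 lower at 3 h and 8 higher and 3 lower at 6 h. The shares with them, 62.5% and 68.8% higher, may be read beside the 71.0% and 58.4% of all entries. A gene for calcineurin B-like protein 8 (LOC_Os01g41510), the kind of sensor that CIPK kinases bind, stood at -1.32 ± 0.38 at 6 h, and an EF-hand gene (LOC_Os08g44390) at 2.43 ± 0.42.

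Genes for peptide ligands, some of which receptor kinases bind, were 1 higher and 1 lower at 3 h, 1 higher and 3 lower at 6 h, and 1 higher and 1 lower at 12 h. The 6 h share was 25% higher, against 58.4% of all entries. At 6 h a RALF-like gene (LOC_Os01g70690) stood at -2.02 ± 0.34, a phytosulfokine 1 gene (LOC_Os06g42680) at -1.44 ± 0.24, an epidermal patterning factor-like gene (LOC_Os11g37190) at -1.61 ± 0.37 and a CLE family gene (LOC_Os05g43660) at 1.21 ± 0.36. A phytosulfokine family gene (LOC_Os03g12990) was listed at 3 h, at 1.97 ± 0.51, and at 12 h, at 2.92 ± 0.62. The 12 h value rests on mean scaled counts of 29.7 in csa and 3.93 in wild type. The lower genes at these times were also phytosulfokine genes, LOC_Os12g05260 at -1.34 ± 0.32 at 3 h and LOC_Os03g47230 at -1.85 ± 0.43 at 12 h. The 14-3-3 list held 1 gene at 6 h (LOC_Os04g38870), at -1.02 ± 0.18. The two-component list held an A-type response regulator gene (LOC_Os04g57720) at 1.43 ± 0.21, besides a phosphate starvation regulator and a phosphotransferase that its terms also caught. The ROP signalling list held none.

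Markers of the embryo and of the endosperm moved with the genotype as well. Embryo genes (globulin 1 and oleosin terms) were higher in csa in 7 of 7 listed at 3 h, summing to 97765 to 187633 scaled counts in csa and 39269 to 63028 in wild type. At 6 h they were higher in 5 of 5, at 58222 to 65419 in csa and 20522 to 32046 in wild type. The 6 h genes include LOC_Os03g62590, annotated as similar to Steroleosin-B. Most of each sum came from a globulin 1 gene (LOC_Os03g46100). Its means were 100236 in csa and 26750 in wild type at 3 h, and 38155 and 17839 at 6 h. Endosperm genes (glutelins and prolamins) were higher too. At 3 h the 4 listed were all higher in csa, summing to 5122 to 6665 scaled counts in csa libraries and 2116 to 2591 in wild type. At 6 h the 2 listed summed to 320 to 517 in csa and 165 to 207 in wild type. Most of that sum came from LOC_Os01g02150, at the start of chromosome 1, and the other gene (LOC_Os01g42200) had 50.9 to 67.5 in csa and 11.8 to 39.4 in wild type. At 12 h the 1 listed had 1717 to 4025 in csa and 461 to 1015 in wild type. No listed marker was at 0 in all libraries, and their part in the kinase values was not tested.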

How the data were processed

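RNA of 18 samples in 6 groups (3 each) was sequenced. The authors deposited, per the file headers, tables of called genes only, with raw read counts per replicate and the log2 fold change of csa over wild type with its p-value and false discovery rate. DESeq2 is named, without version, in the submitters' processing notes. The aligner, the counter, the strand handling and the genome build were not given in the sources used here. Kinase genes occur as close copies, so counts of near-identical genes are uncertain.

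The main calls are the authors'. Scaling factors were recovered by least squares from the counts and the deposited log2 fold changes (residual SD 0.000852, 0.00247 and 0.00250 at 3 h, 6 h and 12 h). Genes tested (21397, 23117 and about 21242) were recovered from whole-number ranks implied by p and FDR. Log2 ratios are of mean scaled counts, with standard errors from replicates. Listed genes were refitted with edgeR 4.0.16 (quasi-likelihood) and DESeq2 1.42.0 in R 4.3.3. A call was kept at a p no larger than the table's largest, an absolute log2 fold change of at least 1 and the same direction. Because uncalled genes are not listed, these refits are alternatives and not the main test. Scripts were tested on simulated data. There the edgeR refit recovered, by p alone, 64% of 2-fold changes at 3 h, 79% at 6 h and 7.14% at 12 h. DESeq2 recovered 60%, 70% and 28.6% of them. Of 4-fold changes edgeR recovered 100%, 99% and 100%.

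Subfamilies were assigned by search terms, short names being read as whole words. RefSeq (ASM3414082v1) matched 95 of 108 genes by gene identifier and gave names and gene order only. Members, lists and tests were chosen with earlier results of these data known. Genes named follow a rule: up to 3 per time, subfamily and direction by FDR, all members at 12 h or in 2 tables, and the 6 per time and direction with the smallest FDR and no overlap. Genes named beyond it were chosen after their values were seen. Depth per library is unknown.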

Additional observations from a re-analysis of the deposited data

Results flagged for a closer look

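The effect of csa differed between 3 h and 6 h for 2 genes in an interaction test. Both had entered the test by being called at both times, in opposite directions, so their effects were already far apart by that choice and the p-values are no independent support. For the lectin-like receptor kinase 7 gene (LOC_Os12g38610) the log2 effect at 6 h minus that at 3 h was -2.34 (edgeR interaction, adjusted p = 5.94e-04), and between -2.68 and -2.15 when single libraries were left out. For GIT2 (LOC_Os02g10480) it was -2.58 (adjusted p = 3.98e-04 by the same edgeR test), and between -2.82 and -2.18 when single libraries were left out. In each gene all 3 csa libraries lay above wild type at 3 h and all 3 lay below it at 6 h. With 3 libraries per group, single samples were not tested as outliers.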

How the results depend on the processing

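All 115 log2 ratios of members kept their direction without scaling, with 1 scaled count added, in the deposited values, in the edgeR fits with and without the replicate block, and when single libraries were left out. With TMM factors from the listed genes, 6 members changed sign at 3 h and 0 at 6 h. Counts of calls moved more. With single libraries left out they ranged from 9 to 13 higher and 4 to 8 lower at 3 h, 25 to 31 higher and 34 to 45 lower at 6 h, and 0 higher and 1 to 2 lower at 12 h. At an absolute log2 fold change of 1.5, there were 7 higher and 0 lower at 3 h, 16 higher and 18 lower at 6 h, and 0 higher at 12 h. At a deposited FDR of 0.01, 10 were higher at 3 h. TMM factors from the listed genes, which centre a list of called genes, left 0 higher at 3 h, 10 at 6 h and 0 at 12 h. With the start of chromosome 1 included, 13 were lower at 3 h. At 12 h the higher count was 0 in the edgeR and DESeq2 refits, with the block and without scaling, and 1 was lower among entries with the word kinase.

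Whether the replicate numbers pair the samples is not settled. Same-numbered csa and wild type libraries correlated in their deviations between -0.21 and 0.29, and libraries of unlike number between -0.40 and 0.30. With the replicate block the splits were 16 and 8 at 3 h, 33 and 54 at 6 h, and 0 and 2 at 12 h. The difference of effects passed for LOC_Os04g39650 with the block (1.75, adjusted p = 0.0329, edgeR) and without wild type replicate 1 at 6 h (2.38, adjusted p = 0.00475). It reversed, far from the threshold, when single libraries were left out for LOC_Os01g41120 (0.037 and 0.10 at 3 h without csa replicate 3 and wild type replicate 2, 0.18 and 0.22 at 6 h without the same libraries), LOC_Os04g48760 (0.0062 and 0.022 at 3 h without csa replicate 1 and wild type replicate 2, 0.090 at 6 h without csa replicate 3) and LOC_Os04g49460 (-0.089 at 6 h without csa replicate 3). The number of members passing was 2, and 2 to 3 under these alternatives. The cause of these changes was not tested. Low read numbers limit the receptor kinase values at 3 h.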

Other observations

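By RefSeq gene order, 76 of the 88 members at 6 h and 20 of the 24 at 3 h could be placed. Within 10 genes of one another lay 2 pairs at 6 h, LOC_Os02g12420 with LOC_Os02g12440 and LOC_Os07g35370 with LOC_Os07g35390, and 0 pairs at 3 h. Both of these pairs were lower in csa, at -1.39 ± 0.34 and -1.07 ± 0.21 for the first and -1.40 ± 0.57 and -2.03 ± 0.54 for the second. Members with no RefSeq match were not placed, among them LOC_Os11g10760 and LOC_Os11g10770, which have consecutive identifiers and share 1 gene symbol in the deposited table, and which were both higher at 6 h. Among all 6 h entries outside the start of chromosome 1, 57.5% of the pairs within 10 genes shared a direction.

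The matching entries at the start of chromosome 1, left out above, numbered 12 at 3 h, 9 at 6 h and 1 at 12 h. They were 7 higher and 5 lower at 3 h and 3 higher and 6 lower at 6 h.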
